A study of Homo sapiens with 12 samples.

Results

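The MAGEA genes are a family of cancer-testis genes on the X chromosome. Their members were taken as all array probes whose gene symbol is MAGEA1, MAGEA2, MAGEA3, MAGEA4, MAGEA6, MAGEA8, MAGEA9, MAGEA10, MAGEA11 or MAGEA12. These 10 genes had 22 probes of 48801 on the array, which names 18665 genes in all. Expression was measured in SW48, an established line from a human microsatellite-instable colorectal cancer, on Illumina HumanWG-6 v3 bead arrays that give 1 signal per probe and array. The 12 arrays formed 4 groups of 3. Control cells were non-treated. The azacytidine group received 1 µM 5'-Aza-cytidine, a cytidine analog that inhibits DNA methyltransferases, for 5 days. The TSA group received 0.5 µM Trichostatin A, a histone deacetylase inhibitor, for 2 days. The combined group received azacytidine and afterwards TSA, at the same doses and times. All groups are the same line, the labels do not say whether replicates were separate cultures, and the p-values may therefore measure technical spread only. Treatment length differed between the groups, and any effect of time in culture cannot be told apart from treatment. DNA methylation, histone acetylation and protein were not measured here.

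MAGE-A genes are transcribed in male germ cells and are silent in most other adult tissues, where their promoters are methylated. Many tumours express them again, and peptides of the proteins shown on HLA class I molecules are recognised by T cells, which made MAGEA1, MAGEA3, MAGEA4 and MAGEA10 targets of vaccines and engineered T cells. The proteins share a MAGE homology domain through which several members bind RING-type ubiquitin ligases, such as TRIM28 for MAGEA3 and MAGEA6. Several members are near-identical copies, among them MAGEA3 and MAGEA6, MAGEA2 and MAGEA2B, and MAGEA9 and MAGEA9B. Their transcripts may bind each other's probes, so a signal of these genes cannot be given with certainty to the named member. Binding between copies was not tested, since probe sequences were not used.

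The promoters of the members are shown first, because methylation of CpG sites near the start of these genes is known to keep them silent. RefSeq windows of 300 bases, from 250 bases before to 50 after a transcription start on GRCh38.p14, were matched by symbol for 8 of the 10 members and gave 14 windows. MAGEA1 and MAGEA10 had none. MAGEA4 had 5 windows, and the stretch printed below is from the first. MAGEA2 and MAGEA12 had 2 overlapping windows each, so the windows are not all separate promoters. The windows held 9 to 21 CpG dinucleotides, and the median over all 35116 RefSeq windows was 14. In the following stretches of 100 bases, 5′ to 3′ on the gene's strand, capitals mark CpG dinucleotides.
MAGEA4, chrX:151912409-151912508, plus strand: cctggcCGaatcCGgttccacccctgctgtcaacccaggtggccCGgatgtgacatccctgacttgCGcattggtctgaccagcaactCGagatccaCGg
MAGEA8, chrX:149881126-149881225, plus strand: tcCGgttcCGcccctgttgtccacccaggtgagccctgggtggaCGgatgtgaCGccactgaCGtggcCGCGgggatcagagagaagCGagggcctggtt
MAGEA12, chrX:152733700-152733799, plus strand: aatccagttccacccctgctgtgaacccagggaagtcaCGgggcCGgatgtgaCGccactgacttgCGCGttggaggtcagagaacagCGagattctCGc
MAGEA3, chrX:152698663-152698762, plus strand: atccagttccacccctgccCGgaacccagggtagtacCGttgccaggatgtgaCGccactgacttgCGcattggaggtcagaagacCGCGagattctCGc
MAGEA2, chrX:152753848-152753947, minus strand: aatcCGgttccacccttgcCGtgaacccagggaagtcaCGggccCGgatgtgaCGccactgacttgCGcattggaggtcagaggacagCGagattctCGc
MAGEA9, chrX:149781867-149781966, plus strand: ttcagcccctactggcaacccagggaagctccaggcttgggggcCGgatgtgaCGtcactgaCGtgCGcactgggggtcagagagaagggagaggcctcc
MAGEA11, chrX:149712002-149712101, plus strand: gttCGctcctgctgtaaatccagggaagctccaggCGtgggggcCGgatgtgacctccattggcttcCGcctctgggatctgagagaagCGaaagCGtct

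The letters GGATGTGA recur in all of these stretches. They, or their reverse complement TCACATCC, were in 14 of 14 member windows and in 1.16% of all windows. The motif was chosen after reading these sequences, and the members are related by duplication. With a CpG ahead of it, CGGATGTGA or TCACATCCG, which overlaps the shorter motif, it was in 12 of 14 windows, of 6 members, and in 0.222% of all windows. The windows of MAGEA3 and MAGEA6 lacked that CpG, and the 300 bases of these genes were identical. With a CpG behind it, GGATGTGACG or CGTCACATCC, it was in 8 of 14 windows, of 6 members, and in 0.134% of all. The windows of MAGEA4 and MAGEA11 had none with a CpG there. The Ets core GGAA or TTCC was in 14 of 14 windows, against 95.5% of all, and its form with a CpG, CCGGAA or TTCCGG, in 2 of 14, those of MAGEA3 and MAGEA6, against 17.2%. The Sp1 core GGGCGG or CCGCCC was in 7 of 14 windows, of 4 members, against 45% of all. Each motif was searched on both strands, and a match describes the letters only.

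Without azacytidine, no array detected any MAGEA probe. A probe counted as detected on an array at a detection p under 0.01, its rank against negative control probes. Over the 6 control and TSA arrays, 0 of 132 probe values passed, whereas each of the 6 arrays with azacytidine detected 10 to 11 member probes. Probes detected on at least 3 of 12 arrays were kept for testing, which left 13915 of 48801 probes on the array and 11 of the 22 member probes, for 7 of the 10 genes. The 11 kept probes had intensities of 89 to 155 without azacytidine and of 155 to 2810 with it, where 63 of 66 values were detected. Each array measures RNA pooled from many cells, so more expressing cells and more RNA per cell cannot be told apart. Over the 12 arrays the median intensity was 117 to 135, and 11742 to 13647 probes were detected per array. Because a member probe could pass only through the arrays on which it was high, the other 11 probes are described separately below.

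MAGEA4, whose protein binds the oncoprotein gankyrin, is a target of engineered T cells. Its probe ILMN_2361714 read 112, 119 and 115 on the 3 control arrays and 112, 122 and 106 on the TSA arrays. After azacytidine it read 1567, 2807 and 1859, and after the combined treatment 2075, 2659 and 2733. Every array with azacytidine lay far above every array without it. A second MAGEA4 probe, ILMN_1687400, rose less, from 118, 130 and 133 in control to 257, 293 and 248 after azacytidine and 273, 296 and 289 after the combined treatment. Both probes separated the arrays in the same way.

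MAGEA8, a member with a less studied protein, gave the same separation on ILMN_2069915. Control arrays read 102, 113 and 118, TSA arrays 115, 103 and 105, azacytidine arrays 1617, 2006 and 1859, and combined arrays 1329, 1313 and 1640. The combined arrays reached at most a little over the lowest azacytidine array on this raw scale. On ILMN_2069912 of MAGEA8 the control arrays read 97.9, 111 and 108, the azacytidine arrays 286, 462 and 308 and the combined arrays 221, 261 and 284. There every combined array lay below every azacytidine array.

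MAGEA1 encodes an antigen whose HLA-presented peptides are recognised by cytotoxic T cells. Its probe ILMN_2181593 read 89, 142 and 131 in control, 136, 137 and 116 after TSA, 840, 1100 and 855 after azacytidine and 756, 852 and 1090 after the combined treatment. The azacytidine and combined arrays overlapped. ILMN_1722830, the other MAGEA1 probe, read 113, 120 and 131 in control, 455, 665 and 502 after azacytidine and 428, 492 and 560 after both drugs.

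MAGEA6 and MAGEA3, the near-identical pair that directs TRIM28 to AMP-activated kinase, gave probes with unequal changes. ILMN_2372681 of MAGEA6 read 108, 127 and 139 in control, 589, 840 and 605 after azacytidine and 575, 608 and 744 after the combined treatment. The other MAGEA6 probe, ILMN_1675651, changed least of those kept, with 111, 155 and 143 in control and 155, 268 and 204 after azacytidine, and 189, 181 and 226 after both drugs. Its first azacytidine array was not detected and lay just below the highest control array on the raw scale. ILMN_1652276 of MAGEA3 read 112, 130 and 123 in control, 192, 264 and 190 after azacytidine and 172, 191 and 208 after both drugs. All 3 azacytidine arrays detected it but only 1 of the 3 combined arrays did.

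MAGEA10, whose HLA-A2 peptide is a T cell target, read 95, 103 and 120 on ILMN_1741430 in control, 117, 108 and 106 after TSA, 483, 664 and 496 after azacytidine and 470, 494 and 638 after the combined treatment. MAGEA12 read 122, 124 and 147 on ILMN_2231003 in control, 134, 126 and 116 after TSA, 448, 667 and 487 after azacytidine and 418, 496 and 600 after both. For both genes the groups with azacytidine overlapped each other and lay apart from the groups without it.

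**Figure D1:**
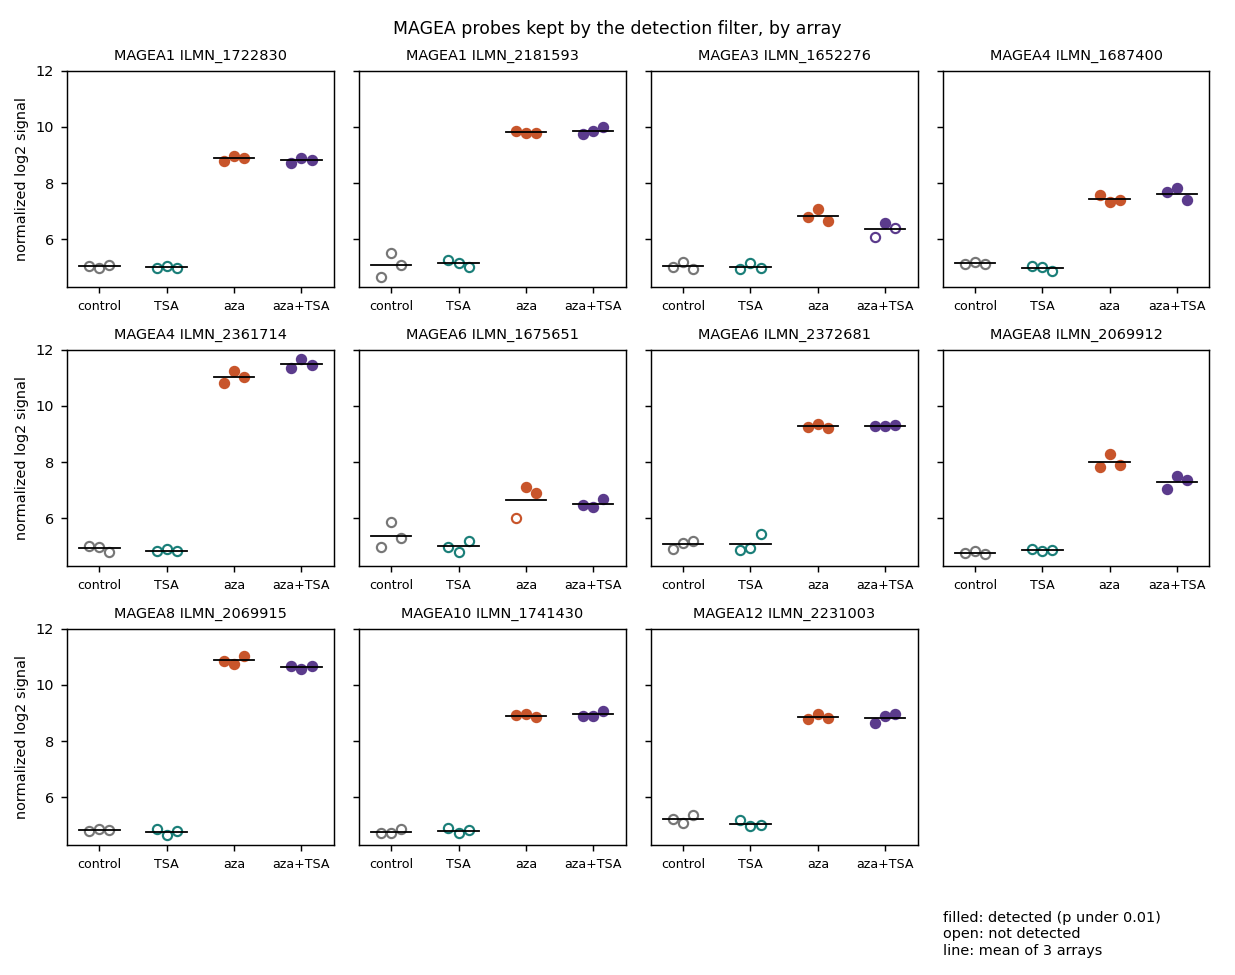
Normalized log2 signal of the 11 kept MAGEA probes on each of the 12 arrays, with 3 arrays per group (aza is azacytidine, aza+TSA the combined treatment). Filled points were detected, open points were not, and lines are group means. Control and TSA points are all open, and the azacytidine and combined groups lie above them in every panel.

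Azacytidine alone was compared with control first. All 11 kept member probes were higher after azacytidine, against 30.2% of all kept probes on the array, and none was lower, against 32.1%. These probes passed the filter only through their arrays with azacytidine and so had to differ. This count describes them, and the count over all 22 probes without the filter is given below. The probes had a median log2 change of 3.84 over a range of 1.28 to 6.11, and the median over all kept probes was −0.0169. On the normalized scale the azacytidine and control arrays did not overlap for 11 of 11 probes, which held in the higher direction for 31.5% of kept probes. Tests were limma's moderated test over 12 arrays with 4 group means, with Benjamini-Hochberg adjustment over the 13915 probes, and SE comes from that fit with n = 3 arrays a group. A group below detection on all its arrays gives only a bound. For the bound, each dim array was given its dimmest detected signal, or the probe's own signal where that was larger, and the bright group's mean was set against the mean of these. It is written as an at-least fold beside the fitted log2 change.

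MAGEA4 was at least 20.5-fold higher after azacytidine on ILMN_2361714 (log2 change 6.11 ± 0.11 SE, adjusted p = 7.94e-14), from a mean log2 signal of 4.92 in control to 11.03. On ILMN_1687400 of the same gene it was at least 1.7-fold higher (2.29 ± 0.11 SE, adjusted p = 1.28e-09). MAGEA8 was at least 18.4-fold higher on ILMN_2069915 (6.03 ± 0.09 SE, adjusted p = 8.14e-15) and at least 2.52-fold on ILMN_2069912 (3.23 ± 0.13 SE). MAGEA1 was at least 8.76-fold higher on ILMN_2181593 (4.73 ± 0.17 SE, adjusted p = 6.91e-11) and at least 4.61-fold on ILMN_1722830 (3.84 ± 0.08 SE). MAGEA6 on ILMN_2372681 was at least 6.05-fold higher (4.18 ± 0.13 SE). MAGEA10 on ILMN_1741430 was at least 4.7-fold higher (4.13 ± 0.08 SE) and MAGEA12 on ILMN_2231003 at least 4.53-fold (3.62 ± 0.11 SE). The left-out second probes of these genes, ILMN_1708901 of MAGEA10 and ILMN_1718107 of MAGEA12, were not detected. Their fitted changes over all 48801 probes were 0.05 and −0.04, and neither was called.

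MAGEA3 was at least 1.13-fold higher on ILMN_1652276 (1.80 ± 0.14 SE, adjusted p = 2.23e-07), close to the limit of what could be bounded. Its left-out probe ILMN_2153572 was not detected and changed by −0.06 in the fit without the filter. For ILMN_1675651 of MAGEA6 no fold can be given, and the fitted change was 1.28 ± 0.26 SE (adjusted p = 0.000998). That call was lost when chip 1 was fitted alone, where the change was 0.57 (adjusted p = 0.226), and was 1.70 on chip 2. Sizes of the fitted changes depended on the background correction. The change of MAGEA4 on ILMN_2361714 was 4.23 without it and 3.45 in the authors' deposited processed values, and all 11 probes were called higher in both. Probes of the same gene differed in size, and levels of different probes are not compared.

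TSA alone left the family undetected. None of the 11 kept probes was called higher, against 0.0934% of all kept probes, or lower, against 0.00719%, by limma after Benjamini-Hochberg adjustment. At an unadjusted p under 0.05 the count was also 0. The fitted log2 changes were −0.39 to 0.09, with both groups below detection on every array, so no fold can be given. For MAGEA4 on ILMN_2361714 the 95% interval of the change ran from −0.32 to 0.17, and for MAGEA8 on ILMN_2069915 from −0.26 to 0.13. A change below the detection limit would not be visible on these arrays.

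After azacytidine followed by TSA, 11 of 11 kept probes were higher than in control, against 30.8% of kept probes on the array, and 0 were lower, against 37.8%. They passed the filter only through arrays with azacytidine, so this count, too, only describes them. This comparison shares its control arrays with the ones above. MAGEA4 was at least 28.2-fold higher on ILMN_2361714 (6.57 ± 0.11 SE, adjusted p = 3.06e-14). MAGEA8 was at least 15.5-fold higher on ILMN_2069915 (5.79 ± 0.09 SE) and MAGEA1 at least 9.15-fold on ILMN_2181593 (4.79 ± 0.17 SE). MAGEA6 on ILMN_2372681 was at least 6.14-fold higher, MAGEA10 on ILMN_1741430 at least 4.87-fold and MAGEA12 on ILMN_2231003 at least 4.49-fold. No bound above 1 could be given for MAGEA3 (1.31 ± 0.14 SE) or for ILMN_1675651 of MAGEA6 (1.14 ± 0.26 SE).

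Against TSA alone the combined treatment was higher on all 11 kept probes, against 30.9% of kept probes, and lower on 0, against 38.2%. The same filter makes this count a description only. The log2 changes ran from 1.34 to 6.64, and MAGEA4 on ILMN_2361714 was at least 31.9-fold higher.

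**Figure D2:**
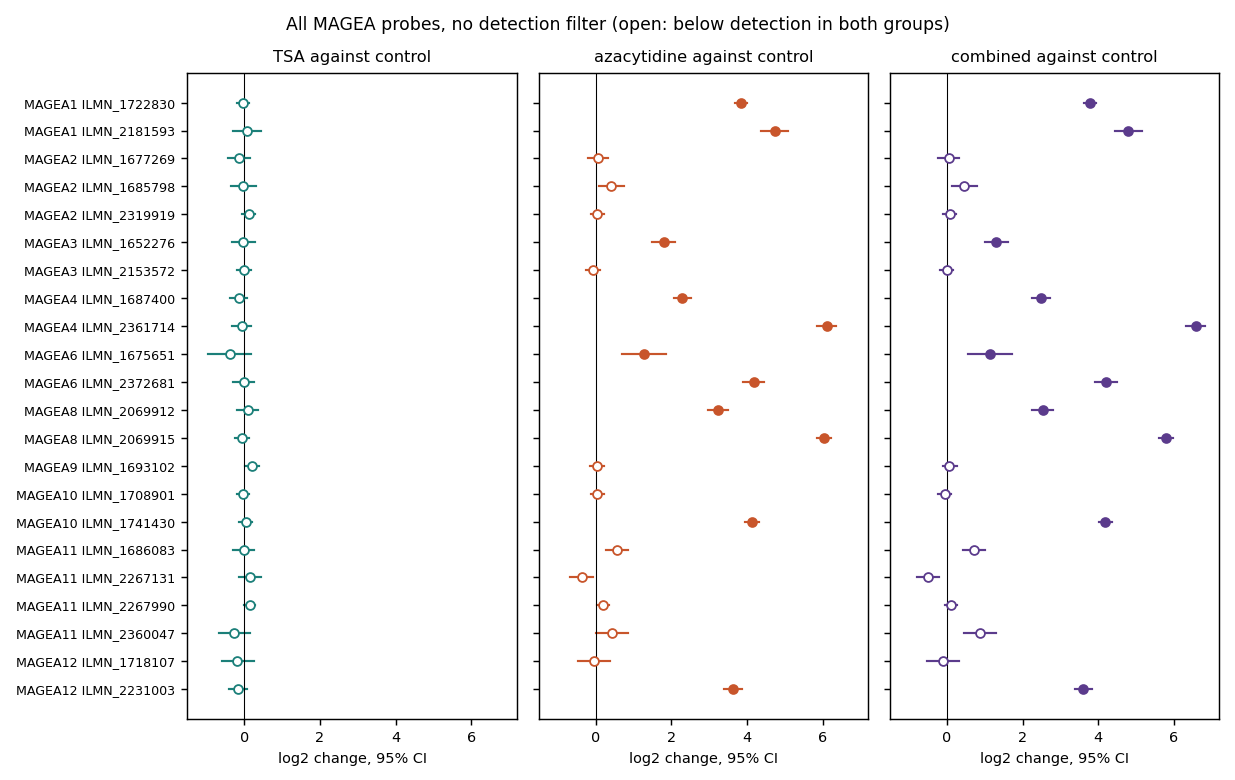
Log2 change of all 22 MAGEA probes against control after TSA, azacytidine and the combined treatment, fitted over all 48801 probes without the detection filter, with 95% confidence intervals. Open points were below detection in both groups. TSA changes lie around 0, while 11 probes of 7 genes stand between 1.28 and 6.11 after azacytidine and between 1.14 and 6.57 after both drugs.

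The next comparison asked whether TSA after azacytidine added to azacytidine alone. Here single probes were called, in both directions. MAGEA4 was higher on ILMN_2361714, by 0.46 ± 0.11 SE on the log2 scale (95% interval 0.21 to 0.70, adjusted p = 0.00738). MAGEA8 was lower on both of its probes, with a log2 change of −0.71 ± 0.13 SE on ILMN_2069912 (adjusted p = 0.00106) and −0.25 ± 0.09 SE on ILMN_2069915 (adjusted p = 0.0488). MAGEA3 was lower, with −0.49 ± 0.14 SE (adjusted p = 0.0178), on a probe that only 1 combined array detected. That made 1 of 11 probes higher and 3 lower, near the 14.8% and 19% of all kept probes on the array.

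The other 7 probes were not called, and their intervals show what sizes remain possible. MAGEA10 had a log2 difference of 0.05 (95% interval −0.13 to 0.23) and MAGEA12 one of −0.01 (−0.25 to 0.22). For MAGEA1 the intervals were −0.23 to 0.10 on ILMN_1722830 and −0.30 to 0.42 on ILMN_2181593. For MAGEA6 they were −0.26 to 0.30 on ILMN_2372681 and −0.72 to 0.43 on ILMN_1675651. The second MAGEA4 probe, ILMN_1687400, differed by 0.19 ± 0.11 SE (adjusted p = 0.181), in the same direction as the first.

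Not all of these 4 calls were stable. The call of MAGEA8 on ILMN_2069915 was lost in 12 of 21 alternatives, with adjusted p up to 0.489, among them 5 of the 6 single arrays left out, all but azacytidine replicate 2. That of MAGEA3 was lost in 7 of 21, among them without azacytidine replicate 2 (adjusted p = 0.0812) and without combined replicate 1 (adjusted p = 0.0766). MAGEA4 on ILMN_2361714 lost its call with median scaling (0.27, adjusted p = 0.304), under which the median change of all kept probes was −0.173 in place of −0.0468, and on chip 1 alone (0.54, adjusted p = 0.0783). Chip 1 held only 1 azacytidine and 1 combined array, so a fit there sets single arrays against each other. The change of MAGEA8 on ILMN_2069912 was −0.80 on chip 1 alone and −0.66 on chip 2 alone.

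**Figure D3:**
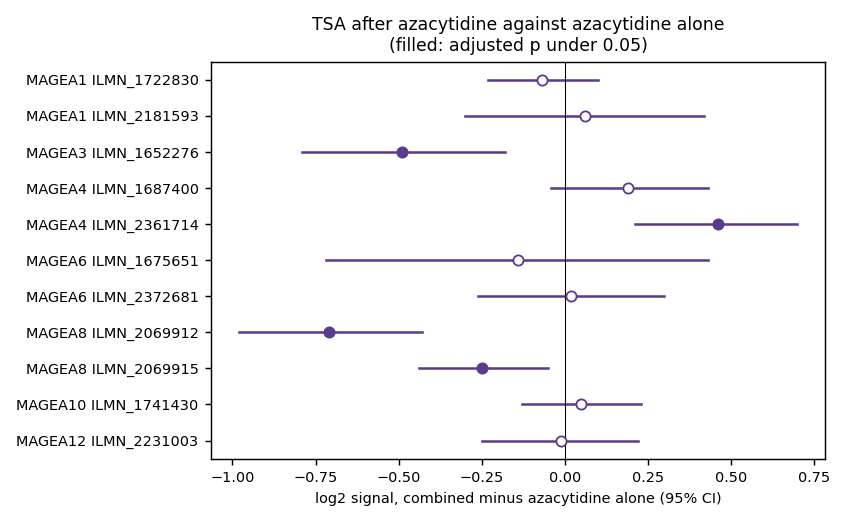
Log2 signal after azacytidine and TSA minus that after azacytidine alone, for the 11 kept MAGEA probes, with 95% confidence intervals. Filled points have an adjusted p under 0.05. MAGEA4 on ILMN_2361714 lies at 0.46, both MAGEA8 probes and the MAGEA3 probe lie below 0, and the other 7 intervals include 0.

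The interaction subtracts the azacytidine change in cells without TSA from that in cells with TSA and so tests the difference directly. It was called higher for 1 of 11 probes and lower for 1, against 10.4% and 10.7% of kept probes. These were MAGEA4 on ILMN_2361714 (0.53 ± 0.16 SE, adjusted p = 0.0325) and MAGEA8 on ILMN_2069912 (−0.80 ± 0.18 SE, adjusted p = 0.0076). The other probe of each gene was not called. MAGEA4 on ILMN_1687400 had 0.35 ± 0.15 SE (adjusted p = 0.12) and MAGEA8 on ILMN_2069915 had −0.18 ± 0.13 SE (adjusted p = 0.328). For both called probes the groups without azacytidine were below detection, so that side of the contrast compares values at background. The MAGEA4 call was lost when any of 9 of the 12 arrays was left out, with adjusted p of 0.0516 to 0.0766. It was kept without azacytidine replicate 2, combined replicate 1 or control replicate 3. With the replicate number as a block both calls stayed, and MAGEA3 was called in addition (−0.46 ± 0.13 SE, adjusted p = 0.0292). The numbers were taken to pair only the azacytidine and combined groups, whereas the interaction also uses the control and TSA arrays.

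The 11 probes that the filter left out belonged to MAGEA2, MAGEA9 and MAGEA11, and to second probes of MAGEA3, MAGEA10 and MAGEA12. They read 82.1 to 177 without azacytidine and 97.8 to 189 with it, and 0 of 132 values were detected. The smallest detection p among them with azacytidine was 0.0105, just outside the limit, on ILMN_1718107 of MAGEA12, whose signal was 156 to 165 in control and 162 to 165 after azacytidine. MAGEA11 is known as a coregulator of the androgen receptor. Its probe ILMN_1686083 read 97.1, 98.6 and 108 in control, 126, 149 and 128 after azacytidine and 132, 148 and 167 after both drugs. In a fit over all 48801 probes it was called higher after azacytidine (0.57 ± 0.13 SE, adjusted p = 0.00746), but no fold can be given below detection.

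Fitted without the filter, 12 of the 22 member probes were higher after azacytidine and 0 lower, against 9.12% and 10% of all probes. After the combined treatment 14 were higher and 1 lower, against 10.5% and 12.7%. Probes of MAGEA11 were called in opposite directions there, all below detection. ILMN_2360047 (0.87 ± 0.19 SE, adjusted p = 0.00449) and ILMN_1686083 (0.73 ± 0.13 SE, adjusted p = 0.00103) were higher. ILMN_2267131 was lower (−0.49 ± 0.13 SE, adjusted p = 0.0171), and ILMN_2267990 was not called (0.11 ± 0.07 SE, adjusted p = 0.326). ILMN_1685798 of MAGEA2, whose protein binds p53, was at the threshold (0.46, adjusted p = 0.0481).

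MAGEA9 was not detected on its single probe, but its copy MAGEA9B was. This copy and the 2 named next are no members and were looked at after the member values had been seen. MAGEA9B on ILMN_2075292 read 103, 96.1 and 117 in control, 94.7, 107 and 113 after TSA, 429, 734 and 480 after azacytidine and 531, 666 and 731 after both drugs. It was at least 4.58-fold higher after azacytidine (4.09 ± 0.13 SE, adjusted p = 1.88e-11). The listed promoter windows of MAGEA9 and MAGEA9B are identical, and which of the copies the signal comes from was not tested. MAGEA2B and the pseudogene MAGEA5P were not detected on any array, with log2 changes after azacytidine of 0.08 and 0.05.

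In RefSeq gene order, 88 genes lie from the outermost member on each side, MAGEA11 to MAGEA1, the outer 2 included. The interval holds the 10 members, 4 CSAG genes, which lie among the MAGEA genes, and 74 others, which include MAGEA2B and MAGEA5P. Only CSAG1 of the CSAG genes had a probe, and it was not detected (log2 change 0.01 after azacytidine). Of the 74 other genes 25 had a probe and 11 could be tested. After azacytidine 8 of these 11 were higher and 2 lower, against 32% and 30.8% of all tested genes. After both drugs 6 were higher and 1 lower, against 32.5% and 36%. These counts include PASD1, PNMA3 and PNMA5, which were below detection on all control and TSA arrays. They passed the filter only through arrays with azacytidine and had to be higher, so the counts cannot be set against the shares. Whether the neighbours rose more often than other genes was not tested.

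The neighbours that could be tested split into genes that went from undetected to bright and genes that were already on. PASD1, another cancer-testis gene, was at least 11.5-fold higher after azacytidine (log2 change 5.24 ± 0.11 SE). PNMA3, of the paraneoplastic antigen family, was at least 12.4-fold higher (5.10 ± 0.14 SE). Its relative PNMA5 was at least 8.67-fold higher (4.96 ± 0.08 SE). The other 5 that rose were detected in control and rose by 0.31 to 0.94, with CETN2, a centrin, at the top. ZNF185 fell (−1.02 ± 0.09 SE), and GABRA3, GABRQ and GABRE, GABA receptor genes that flank members, were not detected on any array.

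**Figure D4:**
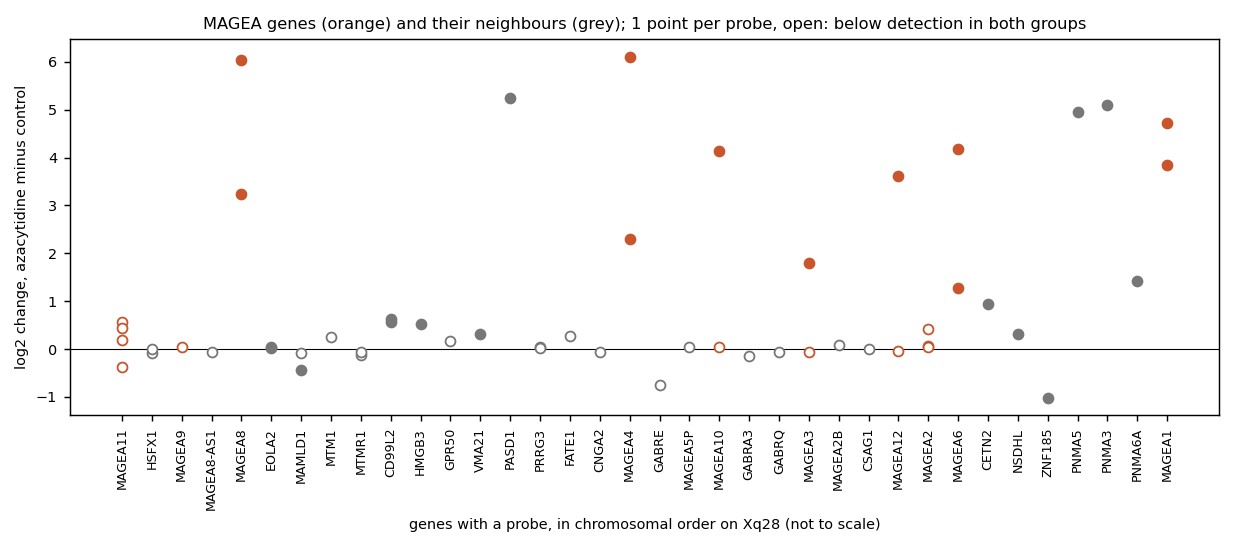
Log2 change after azacytidine of each probe of the genes from MAGEA11 to MAGEA1, in RefSeq gene order and not to scale. The 10 members are in orange and all other genes in grey, among them MAGEA2B, MAGEA5P and MAGEA8-AS1. Open points were below detection in both groups. PASD1, PNMA3 and PNMA5 reach 4.96 to 5.24, within the range of the MAGEA probes, while most other neighbours lie near 0.

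The other MAGE genes include further germline genes and broadly expressed ones. Of 27 listed genes 22 had a probe and 9 were tested, of which 4 rose and 1 fell after azacytidine, against the same 32% and 30.8% of all tested genes. The germline-restricted MAGEC2 was at least 24.7-fold higher (6.52 ± 0.08 SE). Its relatives MAGEB2 (5.02 ± 0.09 SE, at least 10.4-fold) and MAGEC1 (4.81 ± 0.08 SE, at least 7.68-fold) were also below detection in control. These 3 genes, too, could pass the filter only through arrays with azacytidine, so their count describes them and no more. The broadly expressed MAGED1 was detected in control and rose by 0.81 ± 0.09 SE. MAGEF1 fell (−0.31 ± 0.12 SE, adjusted p = 0.0464). After the combined treatment 4 rose and 1 fell, against 32.5% and 36% of all tested genes, the latter being MAGED2 (−0.53 ± 0.15 SE).

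The 5 genes whose signal was most like the mean of the kept MAGEA probes were GAGE4, MAGEC1, MAGEB2, MAGEC2 and GLA, each with a Pearson correlation of 0.999 over the 12 arrays. The arrays lie in a high and a low set, so any gene that separates them cleanly scores high, and 830 of 9477 genes had a correlation above 0.95. GAGE4, another cancer-testis gene, changed by 8.97 on the log2 scale after azacytidine. GLA, which encodes the lysosomal alpha-galactosidase, changed by 1.23.

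Genes whose proteins work with MAGE-A proteins were read next. Of 10 tested partner genes 4 rose and 4 fell after azacytidine, near the 32% and 30.8% of all tested genes, with a median log2 change of −0.19 beside 0.00955 over all genes. PCF11, an mRNA 3′ end factor (−0.71 ± 0.13 SE), PRKAA1, a catalytic subunit of AMP-activated kinase and a target of the MAGEA3 ligase (−0.70 ± 0.10 SE), and HUWE1, a ubiquitin ligase (−0.57 ± 0.11 SE), changed most. After the combined treatment 1 rose and 7 fell, against 32.5% and 36% of all tested genes, among them HUWE1 (−1.06 ± 0.11 SE), PCF11 (−1.01 ± 0.13 SE) and TRIM28 itself (−0.71 ± 0.14 SE). TRIM28 was not called after azacytidine alone (−0.25 ± 0.14 SE, adjusted p = 0.137).

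Of 16 tested regulators of MAGE-A promoters, 3 rose and 7 fell after azacytidine, against 32% and 30.8% of all tested genes, with a median log2 change of −0.16. CTCFL, the germline paralog of CTCF also called BORIS, read 102 to 119 in control and 478 to 654 after azacytidine and was at least 4.65-fold higher (4.06 ± 0.07 SE). It was below detection in control and passed the filter through the arrays with azacytidine. SP1, a factor that binds GC boxes, fell (−1.41 ± 0.09 SE), as did the histone methyltransferase gene SETDB1 (−0.85 ± 0.14 SE). By contrast DNMT1, the maintenance methyltransferase that azacytidine inhibits, had a log2 change of 0.01 ± 0.09 SE. After both drugs 4 rose and 6 fell, against 32.5% and 36%, with EHMT2, a histone H3 methyltransferase gene, at −1.36 ± 0.17 SE. ETS1, an Ets factor, fell after azacytidine (−0.68 ± 0.13 SE) and rose after both drugs (0.63 ± 0.13 SE), and its combined level was 1.31 ± 0.13 SE above that after azacytidine alone.

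Genes of class I presentation, which brings MAGE-A peptides to the cell surface, showed shares near those of all genes. Of 11 tested, 4 rose and 4 fell after azacytidine, against 32% and 30.8% of all tested genes, with a median log2 change of −0.14. The immunoproteasome subunit gene PSMB10 rose (1.17 ± 0.09 SE), as did the peptide transporter gene TAP1 (0.72 ± 0.08 SE). TAPBP, which encodes tapasin, fell (−0.84 ± 0.10 SE). After both drugs 3 rose and 5 fell, against 32.5% and 36%, with TAPBP at −1.49 ± 0.10 SE, TAP2 at −0.99 ± 0.13 SE and HLA-C at −0.95 ± 0.11 SE.

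The labelled line was checked against markers. EPCAM, CDH1, KRT8, KRT18, KRT19 and CDX2, 6 of 10 colorectal epithelial genes, were detected on all 12 arrays, while KRT20, CDX1, VIL1 and LGALS4 were not. None of 5 fibroblast genes was detected on all arrays of any group. Of 7 male germ cell genes with a probe, DAZL and SYCP3 were detected, on the arrays with azacytidine, with bounds of at least 2.4-fold for DAZL and 1.2-fold for SYCP3 against control. Of 3 leukocyte genes with a probe CD14 was detected there, at least 1.72-fold higher. The part of other cell types in the MAGEA result was not tested.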

How the data were processed

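Per the submitters' processing notes, the authors used GenomeStudio and lumi 2.6.0. The deposited intensity values are linear, 1 per probe and array, with no background subtraction or normalization between arrays, as the values show. Per the file headers, a detection p-value is deposited for each probe and array. A second deposited table holds the authors' log2 values normalized between arrays, and it served as an alternative, since how they were made is not stated. With limma 3.58.1 (R 4.3.3), normexp correction (offset 16, background estimated from detection p-values) was followed by quantile normalization and log2. The filter required detection at p under 0.01 on 3 or more arrays and kept 13915 probes. One limma model with 4 group means was fitted, with two-sided tests, adjustment over all kept probes and a threshold of 0.05. The procedure was tested on simulated data. The number of arrays limits the precision.

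Arrays lay on 2 chips of 6. On chip 1 were replicate 1 of every group and, for control and TSA, also replicate 2. The rest were on chip 2. Chip blocks, each chip alone, other normalizations, background corrections and filters, array weights, robust moderation, fits on the compared groups only, and leaving out each array were tried. Same-numbered arrays of different groups had correlations of −0.283 to 0.421, above 0.1 in 11 of 18 pairs. All 3 azacytidine and combined pairs were above 0.1 (0.421, 0.19 and 0.209), so the numbers were taken to pair these groups. Each of these 3 pairs also lay on the same chip, and the part of the chip in the correlations was not tested. The main model leaves the pairing out, and fits with the replicate number as a block are given below. Of the other pairs of groups, not every same-numbered pair was above 0.1.

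Probe symbols come from GEO's platform annotation. Of the array's probes, 27577 had 1 gene, 13 several and 21211 are unnamed here. Probe sequences and proteins were not used here. The members, lists, motifs and tests were chosen with earlier results of these data known. In lists a gene is represented by its kept probe with the highest mean. The results name all member probes except ILMN_1677269 and ILMN_2319919 of MAGEA2 and ILMN_1693102 of MAGEA9. In the fit without the filter these changed by 0.07, 0.04 and 0.04 on the log2 scale after azacytidine, and none was called. Of each list, up to 3 called genes with the largest change per comparison are named. All CSAG genes with a probe, the 5 genes most like the members and the cell markers were also chosen. MAGED1, MAGED2, MAGEF1, MAGEA9B, MAGEA2B, MAGEA5P, CETN2, ZNF185, DNMT1, TRIM28 after azacytidine alone and the GABA receptor genes fall outside this rule and were chosen after their values were seen.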

Additional observations from a re-analysis of the deposited data

Results flagged for a closer look

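For 2 MAGEA probes the azacytidine change differed between cells with and without TSA, by the test of the difference itself. That was 1 of 11 kept probes in each direction, near the 10.4% higher and 10.7% lower of all kept probes. The MAGEA4 call was lost in 14 of 26 alternatives and the MAGEA8 call in 4 of 25. The change of MAGEA8 on ILMN_2069912 was smaller with TSA by a log2 difference of −0.80 ± 0.18 SE (limma adjusted p = 0.0076). The change of MAGEA4 on ILMN_2361714 was larger with TSA by 0.53 ± 0.16 SE (limma adjusted p = 0.0325). Both probes were below detection on all control and TSA arrays. The other probe of each gene was not called, with −0.18 on ILMN_2069915 of MAGEA8 (limma adjusted p = 0.328) and 0.35 on ILMN_1687400 of MAGEA4 (limma adjusted p = 0.12).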

How the results depend on the processing

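The calls against control and against TSA did not depend on the processing in the alternatives run, apart from ILMN_1675651 of MAGEA6 after azacytidine on chip 1 alone. With 1 probe per gene the counts were 7 for azacytidine and for the combined treatment against control, and 7 for the combined treatment against TSA, since 7 genes were tested. The kept probes passed the filter only through arrays with azacytidine. Counts of such arrays against control or TSA therefore describe these probes only. The combined treatment against azacytidine, with 4 calls, gave 1 on chip 1 alone, and 2 on chip 2 alone, with cyclic loess, with median scaling and without the filter. Leaving out single arrays gave 2 to 4, with 2 only without combined replicate 1. The interaction, with 2 calls, gave 0 on either chip alone and with median scaling, and 1 with cyclic loess, with a detection p of 0.05, without the filter and with 1 probe per gene. Leaving out single arrays gave 1 to 2. For MAGEA8 on ILMN_2069912 the interaction had an adjusted p of 0.0645 with cyclic loess and 0.0528 with median scaling. Under median scaling the median change of all kept probes was −0.147 after azacytidine and −0.328 after both drugs, in place of −0.0169 and −0.0714, and all 11 member probes stayed called higher. No direction of a called value reversed. The causes were not tested, and chip-alone fits hold fewer samples, with only 1 azacytidine and 1 combined array on chip 1.

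With the replicate number as a block the calls were 11, 0, 11, 4 and 11 for azacytidine, TSA and combined against control and combined against azacytidine and against TSA, and 3 for the interaction, which added MAGEA3 (−0.46, adjusted p = 0.0292). The counts of 11 again only describe probes that passed the filter through arrays with azacytidine. No shares of all kept probes are given for this setting. No other call of a member probe changed with the block. Control and TSA arrays, which the interaction also uses, were not taken as paired by number.

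Member signals without azacytidine were not above background, and the sizes of their changes depend on the processing. For MAGEA4 on ILMN_2361714 after azacytidine, the log2 change was 6.11, without background correction 4.23, and in the authors' deposited values, which may differ in several steps, 3.45.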
